A study of Mus musculus with 2 samples.

Results

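The 8 NF-kB genes Nfkbia, Nfkbid, Nfkbiz, Tnfaip3, Rel, Relb, Nfkb1 and Nfkb2 were followed through single-cell RNA counts of IL-10-producing CD4+ T cells: the first 4 are inhibitors and feedback genes and the others encode subunits. These 8 of the 28009 genes listed in both matrices were taken by name. The cells came from spleen and small intestine of mice carrying an IL-10 eGFP and a Foxp3 mRFP reporter, which had been injected repeatedly with anti-CD3; the antibody triggers the T cell receptor complex and a passing inflammation of the small intestine follows. IL-10+ CD4+ T cells were sorted, Foxp3+ cells included, and 1 droplet library (10x Genomics, 3′ counting of unique molecular identifiers, UMIs) was made per tissue. All cells therefore share the treatment and both reporters, no untreated animals were sequenced in this way, the study's mice were adult littermates, and the number of mice pooled is not given in the sources used here. Intestinal cells were freed with warm EDTA and collagenase steps, so tissue and tissue digestion cannot be told apart. With 1 library per tissue there is no replicate, no test was run on any difference, and every interval below is an exact 95% interval that covers counting error only.

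NF-kB transcription factors are dimers of Rel-family subunits that are held in the cytoplasm by IkB proteins until a signal, such as T cell receptor or TNF-family receptor engagement, removes the inhibitor. Nfkb1 and Nfkb2 encode the precursors p105 and p100, from which the DNA-binding subunits p50 and p52 are made, while Rel (c-Rel) and Relb carry the activation domain of the dimers. Several genes that shut the pathway down are themselves NF-kB targets: Nfkbia encodes IkB-alpha, which takes dimers off DNA, Tnfaip3 encodes A20, which edits ubiquitin chains on upstream signalling proteins, and Nfkbid (IkB-NS) and Nfkbiz (IkB-zeta) are nuclear IkB proteins that change which targets are transcribed. In T cells c-Rel is known for cytokine genes and for regulatory T cell development, and the p52 and RelB pair for signals from receptors such as OX40.

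All 8 genes are annotated as protein coding in GRCm38 (GENCODE M21): Nfkbia at chr12:55489410-55492647 on the minus strand, Nfkbid at chr7:30421732-30428746 (plus), Nfkbiz at chr16:55811375-55838899 (minus), Tnfaip3 at chr10:19000910-19015657 (minus), Rel at chr11:23736847-23770970 (minus), Relb at chr7:19606217-19629438 (minus), Nfkb1 at chr3:135584655-135691547 (minus) and Nfkb2 at chr19:46304320-46312385 (plus). Nfkb1 overlaps Gm43430 on the same strand and Nfkb2 overlaps Psd and AC114539.1 on the opposite strand, so reads in the shared stretches may be missing from or added to their counts. RefSeq promoter windows (GRCm38.p6, 250 bases before to 50 bases after a transcript start) were held for 5 members, Nfkbia, Nfkbid, Tnfaip3, Rel and Nfkb2, in 10 windows, and were not at hand for Nfkbiz, Relb and Nfkb1. The NF-kB consensus motif, searched on both strands, matched in 7 of these 10 windows and in at least 1 window of each of the 5 genes, against 8.46% of all 32851 windows and 9.55% of the 27025 genes with a window. The windows of 4 genes are shown because these genes are known both to act in the pathway and to be transcribed in response to it. Capitals mark the consensus matches, each sequence runs 5′ to 3′ on the strand of the gene, and a match is a description of the letters and not evidence of binding in these cells.
Nfkbia, chr12:55492598-55492897, minus strand: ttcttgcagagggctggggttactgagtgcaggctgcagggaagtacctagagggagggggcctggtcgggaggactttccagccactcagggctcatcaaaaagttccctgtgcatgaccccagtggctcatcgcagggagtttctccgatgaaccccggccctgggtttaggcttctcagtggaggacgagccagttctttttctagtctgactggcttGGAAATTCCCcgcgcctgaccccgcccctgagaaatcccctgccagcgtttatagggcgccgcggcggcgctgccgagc
Tnfaip3, chr10:19015361-19015660, minus strand: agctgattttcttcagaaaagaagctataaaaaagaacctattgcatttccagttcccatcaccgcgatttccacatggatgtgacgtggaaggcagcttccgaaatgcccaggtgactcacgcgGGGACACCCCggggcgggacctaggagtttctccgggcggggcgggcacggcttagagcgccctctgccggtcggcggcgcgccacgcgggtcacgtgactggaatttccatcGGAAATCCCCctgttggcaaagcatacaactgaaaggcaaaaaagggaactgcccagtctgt
Rel, chr11:23770920-23771219, minus strand: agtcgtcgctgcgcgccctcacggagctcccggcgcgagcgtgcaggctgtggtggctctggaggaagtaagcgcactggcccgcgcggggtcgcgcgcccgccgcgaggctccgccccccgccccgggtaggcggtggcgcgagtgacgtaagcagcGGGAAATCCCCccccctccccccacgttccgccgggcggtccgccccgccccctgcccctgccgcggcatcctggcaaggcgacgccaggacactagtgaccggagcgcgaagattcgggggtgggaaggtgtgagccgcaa
Nfkb2, chr19:46304487-46304786, plus strand: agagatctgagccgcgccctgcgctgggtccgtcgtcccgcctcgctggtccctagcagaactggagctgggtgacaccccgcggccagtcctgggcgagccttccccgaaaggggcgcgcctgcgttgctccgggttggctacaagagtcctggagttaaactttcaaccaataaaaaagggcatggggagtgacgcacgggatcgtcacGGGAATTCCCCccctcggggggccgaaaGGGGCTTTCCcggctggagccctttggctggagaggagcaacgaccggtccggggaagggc

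The match in the Nfkbia window began 29 bases before the transcript start. In the Tnfaip3 window matches began 125 and 12 bases before the start, and in the Nfkb2 window overlapping matches began 39 and 38 bases before it and a further match 11 bases before it. The Rel window held overlapping matches that began 92 and 91 bases before the start. Of the 3 Nfkbid windows, 1 held matches, beginning 226 and 181 bases before its start.

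The splenic library held 1738 barcodes and 11103530 UMIs and the intestinal one 1474 barcodes and 5693395 UMIs, with no barcode in common. After the quality filter and removal of cells in G2/M phase, 1468 splenic cells (median 5398 UMIs) and 1277 intestinal cells (median 3696 UMIs) were kept. T cell genes were detected in 99.9% and 99.7% of the kept cells. The summed CD8 markers stood at 13.8 CPM (UMIs of the gene per 1e6 UMIs) in spleen, with Cd8a at 0, and at 353 CPM in intestine, where 121 cells had a UMI of both Cd8a and Cd8b1 although the sort was for CD4. Summed markers of B, myeloid, epithelial, stromal and erythroid cells reached at most 64.2 CPM each, and Lyz2 and Tyrobp, which define myeloid cells, were at 0 in intestine, as was Ms4a1 of B cells in spleen.

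Tnfaip3, Nfkbiz and Nfkbia were at least 1.5-fold higher in the intestinal cells and Relb in the splenic cells. Over all genes 21.4% and 24.2% passed that fold in these directions. Tnfaip3, Nfkbiz and Nfkbia stood above spleen by 9.32-fold, 4.67-fold and 1.91-fold, whereas Relb was 1.57-fold higher in the splenic cells and Nfkb1 and Nfkb2 were slightly higher there. Tnfaip3 stood at 43.6 CPM in spleen (39.4 to 48.1) and 406 CPM in intestine (389 to 424), a log2 ratio of spleen over intestine of -3.22 (-3.38 to -3.06). Nfkbiz stood at 47.5 CPM in spleen (43.2 to 52.2) and 222 CPM in intestine (209 to 235), a log2 ratio of -2.22 (-2.39 to -2.06). Among the 9022 genes with at least 50 UMIs these were the 87th and 192nd lowest ratios. For Nfkbia the levels were 548 CPM (533 to 563) and 1048 CPM (1020 to 1077), a log2 ratio of -0.94 (-0.99 to -0.88).

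Nfkbid, the other nuclear IkB gene, was nearly level between tissues. Its level was 35.0 CPM in spleen and 39.7 CPM in intestine, and the interval of its log2 ratio, -0.18 (-0.44 to 0.08), includes 0. Rel was also close between tissues, at 41.6 and 51.3 CPM (log2 ratio -0.30, -0.53 to -0.07). Relb stood at 70.0 CPM in spleen and 44.7 CPM in intestine (0.65, 0.43 to 0.87). Nfkb1, at 176 and 145 CPM, and Nfkb2, at 53.9 and 42.5 CPM, had log2 ratios of 0.28 (0.16 to 0.41) and 0.34 (0.11 to 0.58). In all, 1 member was at least 1.5-fold higher in spleen and 3 were at least 1.5-fold lower, against 24.2% and 21.4% of all genes in those directions. Relb was under that fold, at 0.50, when genes taking over 0.5% of the UMIs were left out of the totals.

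**Figure D1:**
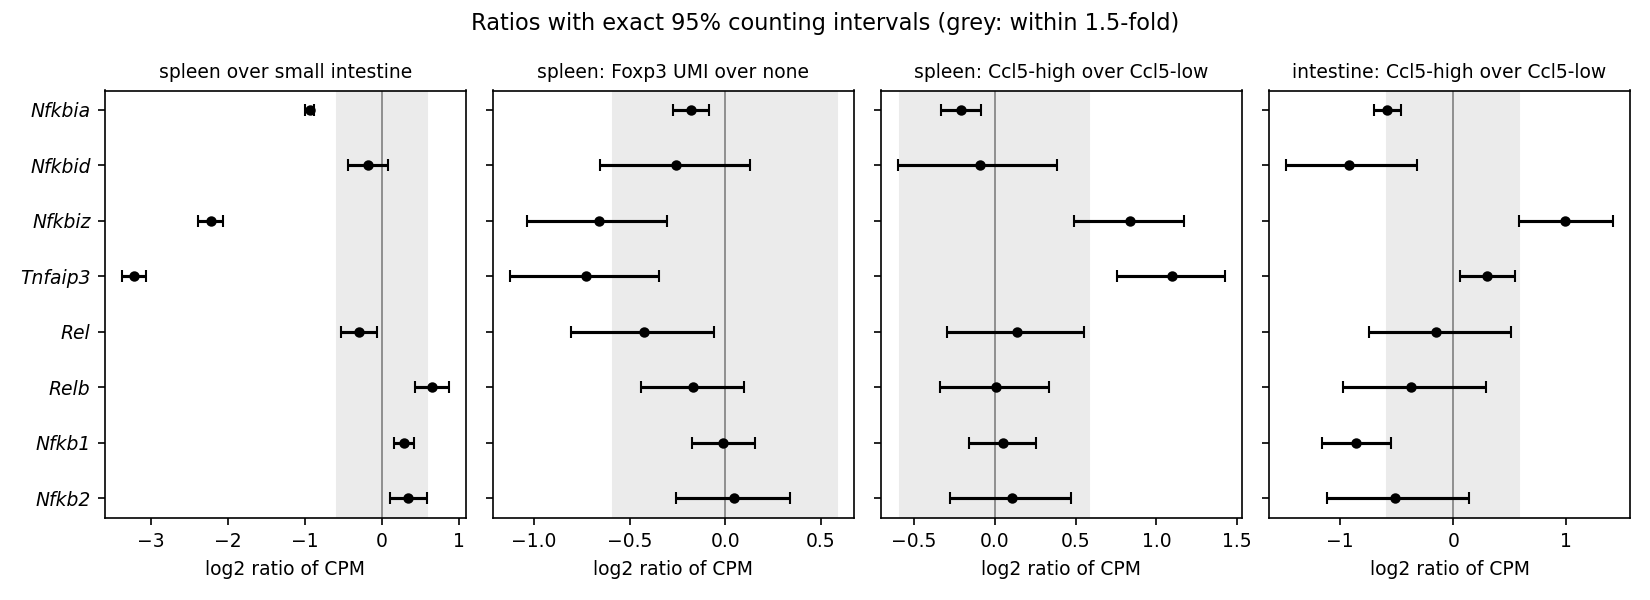
Log2 ratios of CPM (x axis) for the 8 genes (y axis) in the comparison of tissues, of splenic cells with and without a Foxp3 UMI, and of Ccl5-high and Ccl5-low cells in each tissue; points are ratios, bars exact 95% counting intervals and the grey band ratios within 1.5-fold. Tnfaip3, Nfkbiz and Nfkbia lie left of the band in the tissue panel, and Nfkbiz lies right of it in both Ccl5 panels.

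The summed level of genes that warm digestion is known to induce also differed between the tissues. The list (Fos, Jun, heat-shock and related genes, 15 listed) stood at 5458 CPM in spleen and 7316 CPM in intestine. Its members did not all share that direction: the heat-shock genes Hspe1 (log2 ratio of spleen over intestine 1.22), Hsp90aa1 (0.73) and Hspa8 (0.53) were higher in spleen. Hspa8 gave 1916 and 1330 CPM of the sums in spleen and intestine, and Junb 847 and 2203 CPM, the largest part in intestine. Within each library the cells were ranked by this sum and split into 4 equal bins, each of 25% of the cells. Across thinned cells Junb was also the gene nearest in counts to Nfkbia and Nfkbiz (mean r 0.24 and 0.12). The bins were thus partly bins by a correlate of these 2 genes. From the lowest to the highest intestinal bin Nfkbia went from 576 CPM (537 to 617) to 1545 CPM (1471 to 1622), Nfkbiz from 136 CPM (118 to 157) to 287 CPM (255 to 321) and Tnfaip3 from 309 CPM (281 to 340) to 552 CPM (508 to 599). In spleen the corresponding steps were from 476 CPM to 684 CPM for Nfkbia, from 47.1 CPM to 51.5 CPM for Nfkbiz and from 40.4 CPM to 56.0 CPM for Tnfaip3. Intestinal cells of the lowest bin, with a list sum of 3905 CPM, were set against splenic cells of the highest bin, with 7781 CPM. In that comparison Tnfaip3 was 5.52-fold higher in intestine (4.48 to 6.86) and Nfkbiz 2.65-fold higher (2.07 to 3.40), while Nfkbia was lower in intestine, with a log2 ratio of spleen over intestine of 0.25 (0.12 to 0.37). The same log2 ratio was 0.88 for Nfkbid, 1.19 for Relb, 0.93 for Nfkb1 and 0.69 for Nfkb2, with intervals above 0, and 0.46 (-0.01 to 0.95) for Rel. No share of all genes past the fold is given for these bins, so these values are not set against a background. Warm steps are described for intestine and not for spleen, yet the list sum ran from 3591 to 7781 CPM over the splenic bins. The sum is thus no measure of digestion alone, and setting bins against each other by it does not hold digestion equal. The 3 genes thus differed in how far their tissue ratio moved with the digestion list, and the part of digestion in the ratios was not tested.

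**Figure D2:**
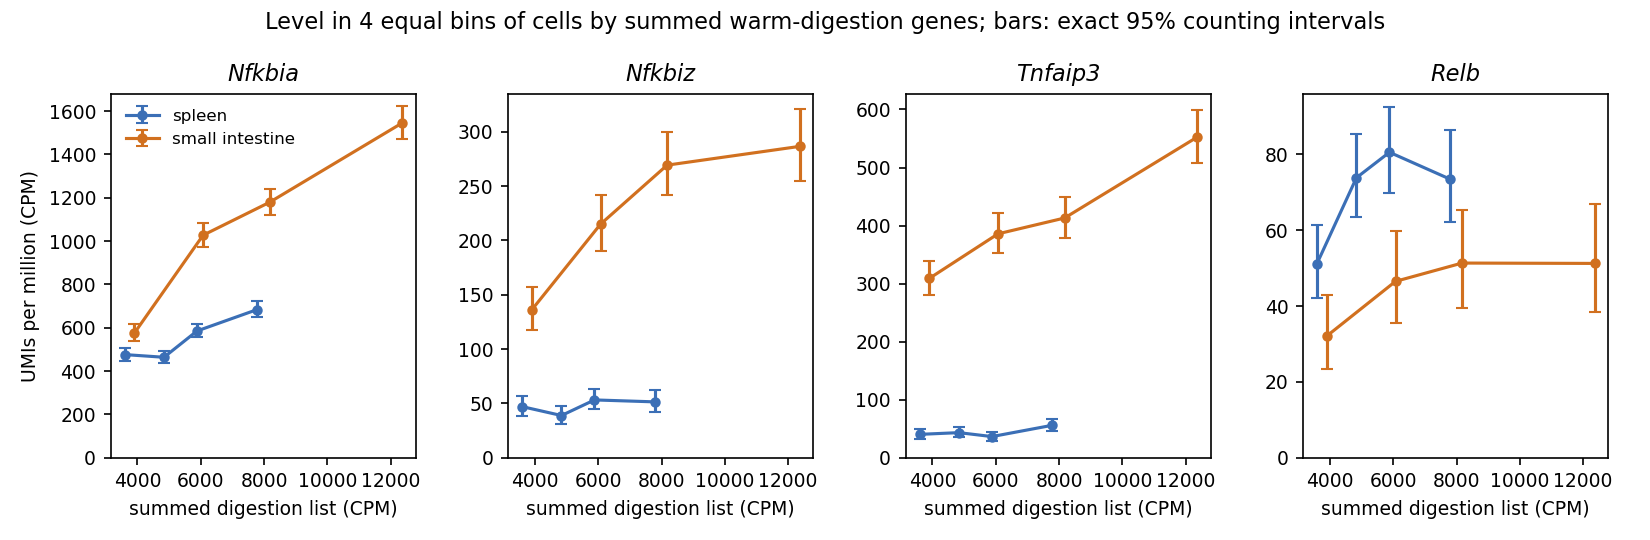
Level (CPM, y axis) of 4 genes in 4 equal bins of splenic (blue) and intestinal (orange) cells placed at the summed digestion genes of the bin (CPM, x axis), with exact 95% counting intervals. The lowest intestinal bin falls within the splenic range for Nfkbia but stays above every splenic bin for Nfkbiz and Tnfaip3.

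Without the intestinal CD8 cells and the cells with UMIs of other cell types, the log2 ratios were -3.30 for Tnfaip3, -2.38 for Nfkbiz, -1.03 for Nfkbia and 0.63 for Relb. Among Ccl5-high cells of both tissues they were -2.36 (-2.66 to -2.06), -1.60 (-1.92 to -1.29), -1.06 (-1.18 to -0.93) and 0.69 (0.31 to 1.06). Among Ccl5-low cells Tnfaip3 gave -3.15 (-3.44 to -2.86), Nfkbiz -1.45 (-1.87 to -0.997) and Nfkbia -1.43 (-1.55 to -1.31). In that state Nfkbid was also lower in spleen, at -0.99 (-1.52 to -0.40), as was Nfkb1, at -0.48 (-0.77 to -0.19), which had the opposite sign over all cells. These Ccl5-low values rest on 100 intestinal cells.

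The share of cells with a UMI was compared after each cell had been thinned to 2094 UMIs, which left 1438 splenic and 1149 intestinal cells. Tnfaip3 was then detected in 10.1% of the splenic cells (8.58 to 11.8) and 53.7% of the intestinal ones (50.8 to 56.6). Nfkbiz was found in 10.2% (8.70 to 11.9) and 33.5% (30.8 to 36.3), and Nfkbia in 61.4% (58.8 to 63.9) and 71.6% (68.9 to 74.2). Cells with 3 or more UMIs made up 14.7% of the splenic and 35.8% of the intestinal cells for Nfkbia, and 0.139% and 8.62% for Tnfaip3. Relb had a lower share in intestine, 8.88% (7.30 to 10.7) against 13.8% (12.0 to 15.7), and so had Nfkb1, with 25.5% (23.0 to 28.1) against 30.2% (27.8 to 32.6), where the intervals just overlap. For Rel (7.93% and 9.92%) and Nfkb2 (10.5% and 8.96%) the intervals of the shares overlapped. Nfkbid had a lower share in spleen, 6.05% (4.87 to 7.41) against 9.05% (7.46 to 10.9), although its intestinal share came out as low as 6.88% in 5 further random thinnings. Before thinning the shares were higher, for example 22.1% and 70.1% for Tnfaip3 and 31.9% and 14.8% for Relb. No cell type in these T cell sorts should lack the 8 genes, so a share due to free RNA could not be measured for them directly. The erythroid genes, a common source of free RNA, were seen in 0.204% of the splenic cells and in 0 of the 1277 intestinal ones. They do not gauge free RNA of other genes. Ccl5, for example, had a UMI in 99.5% of the unthinned intestinal cells, and whether free RNA added to this was not tested.

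**Figure D3:**
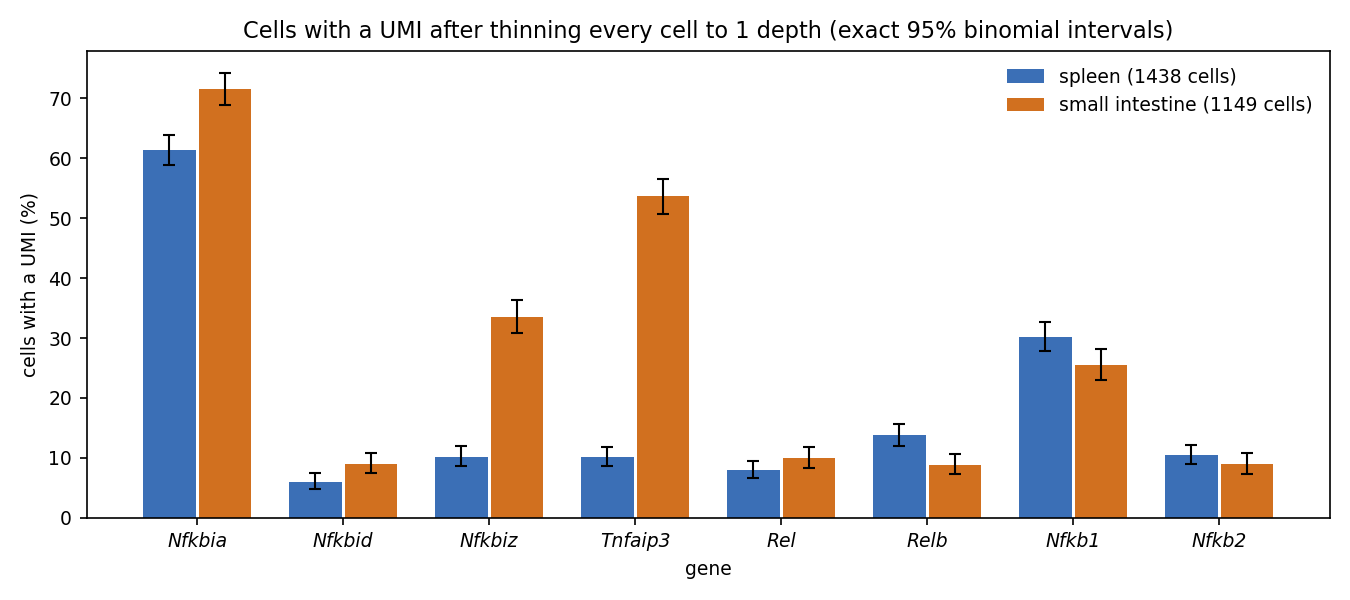
Share of cells (%, y axis) with a UMI of each gene (x axis) in splenic (blue) and intestinal (orange) cells thinned to 2094 UMIs, with exact 95% binomial intervals. Tnfaip3 and Nfkbiz show the widest gaps between tissues among the 8 genes, and Relb, Nfkb1 and Nfkb2 are the genes with the higher share in spleen.

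The 10% of cells with the most Nfkbid UMIs held 81.9% of the 320 splenic UMIs and 77.0% of the 200 intestinal ones. For Relb the same 10% held 49.8% of 641 splenic and 72.9% of 225 intestinal UMIs. These shares are over unthinned cells and follow from how many cells had a UMI at all. That was 14.0% of splenic and 13.6% of intestinal cells for Nfkbid and 31.9% and 14.8% for Relb. They are thus no measure of uneven expression or of a difference between tissues. The highest splenic cell held 12 Nfkbid UMIs and the highest intestinal cell 3.

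Cells with and without a Foxp3 UMI were compared next, since the sort included Foxp3+ cells. A cell without a Foxp3 UMI may still express the gene. Of the splenic cells with such a UMI, 42.6% (36.7 to 48.7) kept one after thinning. The groups are therefore defined by detection and do not separate Foxp3+ cells from all others. Foxp3 encodes the factor that defines regulatory T cells, and it was seen in 280 splenic but 28 intestinal cells. In spleen the level of Tnfaip3 was 29.3 CPM with and 48.5 CPM without a Foxp3 UMI (log2 ratio -0.73, -1.13 to -0.35). Nfkbiz was at 33.1 and 52.4 CPM (-0.66, -1.04 to -0.30). These were the 2 members at least 1.5-fold lower, and 0 were higher by that fold, against 7.4% and 6.35% of the 8110 genes with enough UMIs. Nfkb1 (176 and 177 CPM) and Nfkb2 (55.1 and 53.5 CPM) were nearly level, with intervals of -0.18 to 0.15 and -0.26 to 0.34 on the log2 scale. Rel had a log2 ratio of -0.43 (-0.81 to -0.06), Nfkbia of -0.18 (-0.27 to -0.08), Nfkbid of -0.26 (-0.66 to 0.13) and Relb of -0.17 (-0.44 to 0.10).

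Within Ccl5-low splenic cells the lower values with Foxp3 were smaller, -0.54 for Nfkbiz (-0.94 to -0.16) and -0.52 for Tnfaip3 (-0.95 to -0.12), and neither reached the fold. Cells with a Foxp3 UMI were also deeper, at a median of 7665.5 against 5047.5 UMIs, and after thinning the ratios were -0.41 and -0.38. The thinned shares of cells with a UMI overlapped between cells with and without Foxp3, at 9.03% (5.93 to 13.0) and 10.3% (8.64 to 12.2) for Tnfaip3 and at 8.30% and 10.7% for Nfkbiz. In intestine the 28 cells held 177 UMIs of Nfkbia, 56 of Tnfaip3 and 13 of Nfkbiz. There Nfkbiz was again lower with Foxp3, at 87.1 against 226 CPM (-1.38, -2.29 to -0.60), and Tnfaip3 was not, at 375 against 407 CPM (-0.12, -0.53 to 0.26). Nfkbid, Rel, Relb, Nfkb1 and Nfkb2 had 2 to 19 UMIs in these cells, and the intervals of their ratios include 0, as does that of Nfkbia.

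The Ccl5-high state was set at 10 or more UMIs of Ccl5, a chemokine of cytotoxic and effector T cells, per 10000 UMIs of the cell, which held for 224 splenic and 1177 intestinal cells. It is a range and not a cell type, and 81 splenic and 125 intestinal cells lay between 5 and 20. In spleen Tnfaip3 stood at 80.7 CPM in Ccl5-high and 37.8 CPM in Ccl5-low cells (log2 ratio 1.09, 0.75 to 1.43), and Nfkbiz at 76.7 and 43.0 CPM (0.84, 0.49 to 1.17). Nfkbia was slightly lower in the Ccl5-high cells, at 483 against 558 CPM (-0.21, -0.33 to -0.09). The other 5 members lay between -0.09 and 0.14, all with intervals that include 0. Counted by the fold, 2 members were higher and 0 lower, against 7.98% and 10.3% of 8110 genes. The result depended on how the state was set. When whole graph clusters, built without the 8 genes, were called Ccl5-high by their summed Ccl5, 6 clusters with 628 splenic cells qualified. They included clusters led by Lag3, Hmgb2 and Hist1h2ap with a summed Ccl5 of 14.2, 13.6 and 12.5 per 10000, against 395 in that led by Ccl5 and Nkg7. The set thus took in many cells under the cut per cell, which 224 passed. With it the ratios were 0.11 for Tnfaip3, 0.16 for Nfkbiz and 0.82 for Nfkbid. With a cut per cell of 40 per 10000 these 3 ratios were 1.22, 0.80 and -0.07.

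In intestine the same contrast put Nfkbiz past the fold, as in spleen, and also Nfkb1 and Nfkbid, which lay inside it in spleen. Nfkbiz was again higher in Ccl5-high cells, at 232 against 117 CPM (0.99, 0.58 to 1.42), while Tnfaip3 was at 413 and 336 CPM (0.30, 0.06 to 0.55). Nfkb1 was lower, at 135 against 246 CPM (-0.86, -1.16 to -0.55), and so was Nfkbid, at 36.8 against 69.8 CPM (-0.92, -1.48 to -0.32). Nfkbia was at 1004 and 1503 CPM (-0.58, -0.70 to -0.46), just inside the fold of 1.5. The CD8 markers moved with this contrast, at a summed 387 CPM in Ccl5-high and 4.51 CPM in Ccl5-low cells, and without the CD8 cells and the cells with UMIs of other cell types the ratios were -0.86 for Nfkb1 and -0.75 for Nfkbid. By the fold, over all cells, 1 member was higher and 2 lower, against 12.9% and 18.7% of 6862 genes, whose median log2 ratio was -0.14. Rel, Relb and Nfkb2 had 25 to 26 UMIs in the 100 Ccl5-low cells, and their intervals include 0. The cut of 10 ran through the lower mode of intestinal Ccl5, and with 40 per 10000, near the lowest point between the modes, the ratios were 0.67 for Nfkbiz, -0.90 for Nfkb1, -0.89 for Nfkbid and -0.65 for Nfkb2. By graph clusters, a single cluster of 74 intestinal cells, at 9.56 per 10000, was Ccl5-low, while clusters at 25.6 and 26.7 counted as Ccl5-high. Nfkbiz was then at 0.57, Nfkb1 at -1.19 and Nfkb2 at -1.06. The thinned share of Nfkb1 was 24.1% (21.5 to 26.7) in Ccl5-high and 42.7% (32.3 to 53.6) in Ccl5-low intestinal cells, and that of Nfkbiz 34.7% (31.8 to 37.7) and 19.1% (11.5 to 28.8).

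Foxp3 and Ccl5 were then combined into 6 states that share no cell: cells with a Foxp3 UMI, and Ccl5-high and Ccl5-low cells without one, in each tissue. States without a Foxp3 UMI may still hold cells that express Foxp3. Tnfaip3 was ordered by tissue. It was at 363 to 411 CPM in the intestinal states, which did not differ from one another beyond counting error, then at 85.7 CPM in splenic Ccl5-high, 41.3 CPM in splenic Ccl5-low and 29.3 CPM in splenic Foxp3 cells, each step beyond it. Nfkbiz was at 234 CPM in intestinal Ccl5-high cells, above all others, and then at 123 CPM and 87.1 CPM in intestinal Ccl5-low and Foxp3 cells and 80.3 CPM in splenic Ccl5-high cells, where neighbours did not differ beyond counting error. Splenic Ccl5-low (47.0 CPM) and Foxp3 cells (33.1 CPM) came last, each below the state before it beyond counting error. The splenic Foxp3 cells were deeper, at a median of 7665.5 against 5085 UMIs in the splenic Ccl5-low cells. After thinning, the shares of cells with a UMI in these states overlapped. They were 9.03% (5.93 to 13.0) and 8.81% (7.10 to 10.8) for Tnfaip3, and 8.30% (5.34 to 12.2) and 9.64% (7.85 to 11.7) for Nfkbiz.

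Nfkbia was at 1640 CPM in intestinal Ccl5-low, 1185 CPM in intestinal Foxp3 and 995 CPM in intestinal Ccl5-high cells, then at 579 CPM in splenic Ccl5-low cells, all steps beyond counting error. Splenic Foxp3 (499 CPM) and Ccl5-high cells (488 CPM) did not differ. Nfkbid and Nfkb1 shared their highest state, intestinal Ccl5-low cells, at 82.8 CPM and 270 CPM. The next state was at 37.0 CPM for Nfkbid, after which no neighbours differed, and at 177 CPM for Nfkb1, where the 3 splenic states were level (176 to 177 CPM) and intestinal Ccl5-high (135 CPM) and Foxp3 cells (127 CPM) followed, the former beyond counting error. For Relb no neighbours differed beyond counting error, from 72.2 CPM in splenic Ccl5-low to 33.5 CPM in intestinal Foxp3 cells. Rel ran from 80.4 CPM (12 UMIs) in intestinal Foxp3 to 33.1 CPM in splenic Foxp3 cells, which stood apart from splenic Ccl5-low cells (44.2 CPM). The thinned shares of Rel in both splenic states overlapped, at 6.14% (3.62 to 9.64) and 8.29% (6.63 to 10.2). Nfkb2 ran from 66.8 CPM in intestinal Ccl5-low to 26.8 CPM (4 UMIs) in intestinal Foxp3 cells, with 1 step beyond counting error, from splenic Ccl5-low (52.3 CPM) to intestinal Ccl5-high cells (41.0 CPM).

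**Figure D4:**
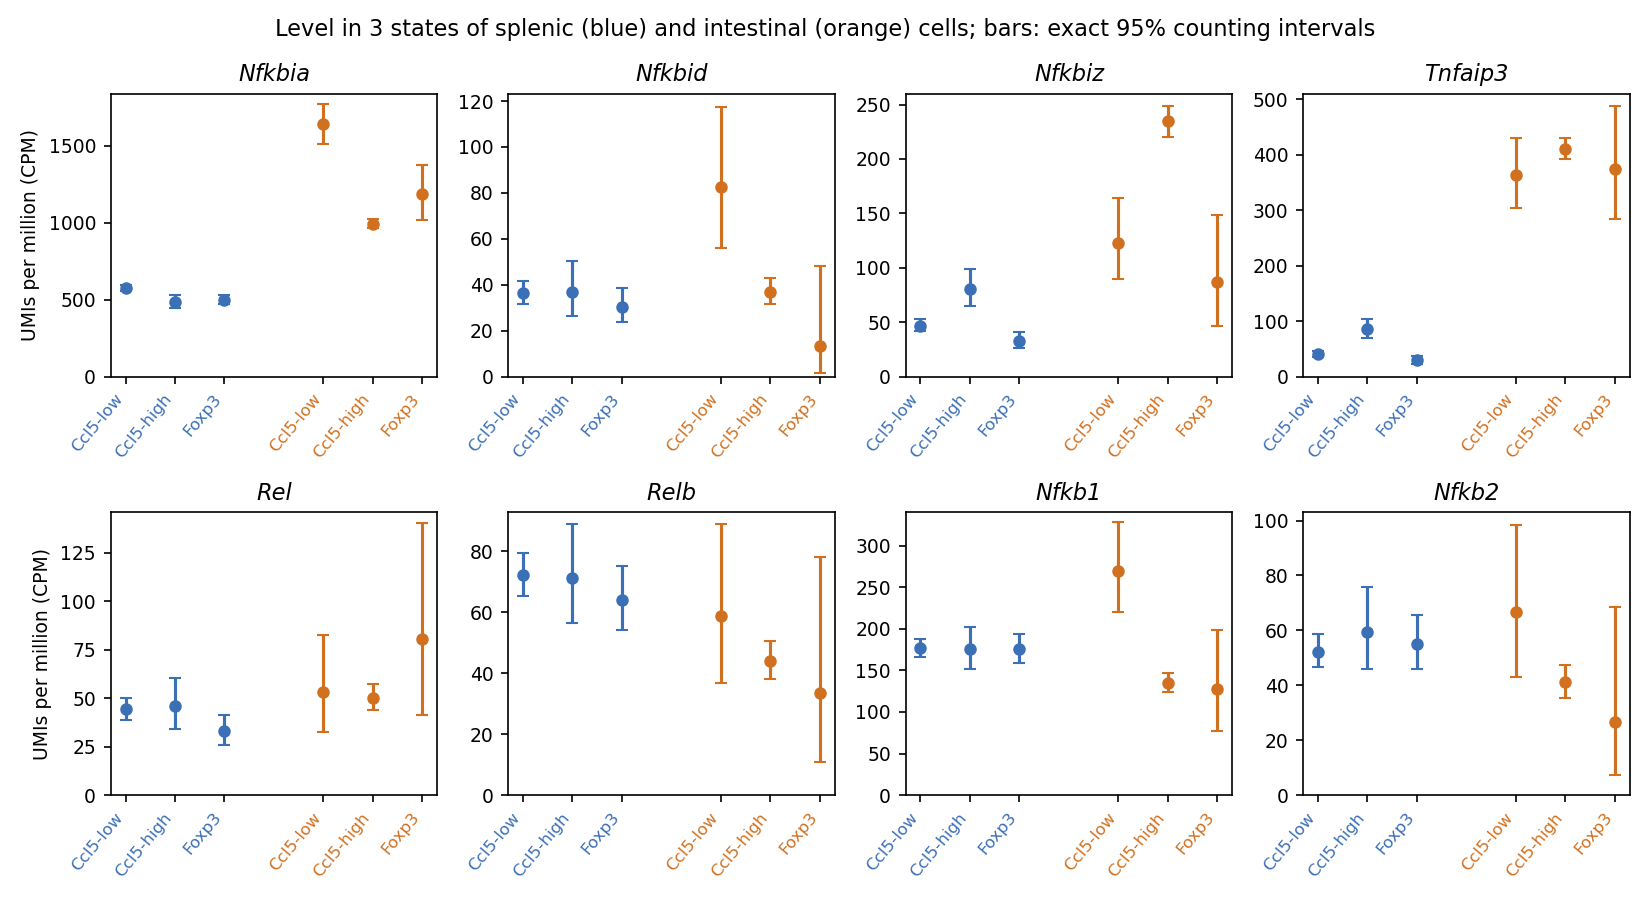
Level (CPM, y axis, a scale of its own for each gene) in splenic (blue) and intestinal (orange) Ccl5-low and Ccl5-high cells without a Foxp3 UMI and cells with one (x axis), with exact 95% counting intervals. Tnfaip3 separates the tissues in all 3 states, and Nfkbid and Nfkb1 have their highest point in intestinal Ccl5-low cells.

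Graph clusters made without the 8 genes gave a finer view, as a description, over the 12 splenic and 11 intestinal clusters of at least 50 cells. By point value, Nfkbia, Nfkbid, Nfkbiz, Tnfaip3, Rel and Nfkb1 were lowest, among these intestinal clusters, in that led by Cd8a and Cd8b1 (118 cells). No share of all genes lowest there is given, so this is not read as a trait of the members. Nfkbia was at 308 CPM there (264 to 358) and Nfkb1 at 68.7 CPM, against 1721 CPM (1578 to 1872) and 306 CPM in the cluster led by Capg, Tmem176b and Furin, which also had the highest Nfkb2. Tnfaip3 in the Cd8a cluster was 277 CPM (235 to 323), by point value lower than in the other 10 but still above every splenic cluster. For Nfkbid, Rel, Nfkb1 and Tnfaip3 the next lowest clusters, at 16.6, 26.5, 72.8 and 290 CPM, lay inside the interval of the Cd8a cluster. Relb and Nfkb2 were lowest in another intestinal cluster, led by Ccl5, Cd7 and Gzmb. They stood at 9.93 CPM (3 UMIs, 2.05 to 29.0) and 6.62 CPM (2 UMIs, 0.80 to 23.9). The next lowest clusters lay inside these intervals, at 16.1 CPM (4 UMIs) for Relb and 10.5 CPM (3 UMIs) for Nfkb2.

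In spleen the cluster led by Tcf7, Klf2 and Ccr7, genes of resting T cells, had the highest Nfkbia, 800 CPM (735 to 869), together with the lowest Relb, the lowest Nfkbid (11.4 CPM) and the lowest Nfkb2 (10.0 CPM). The cluster led by Ccl5, Nkg7 and Ccl4 had the lowest Nfkbia, 420 CPM (359 to 488), and the highest Tnfaip3, 114 CPM (83.7 to 152). Nfkbid was highest, at 64.0 CPM (51.2 to 79.0), in a cluster led by Hist1h2ap and Stmn1, genes of dividing cells. Relb (123 CPM) and Nfkb1 (294 CPM) were highest in a small cluster led by Tnfsf8 and Tcf7. These splenic ranks are of point values, given without a share over all genes. For each of them except the highest Nfkbia, the counting interval overlapped that of the next cluster. For Nfkbia the next of these clusters, led by Il7r and Txnip, was at 615 CPM (530 to 710).

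Members were found together in cells somewhat more often than independent detection would give. Over the 28 pairs the median odds ratio of co-detection in thinned cells was 1.20 in spleen and 1.36 in intestine, with 8 and 9 pairs at 1.5 or more and 0 at 1/1.5 or less. Over all pairs of genes found in at least 10% of cells, the median was 1.01 in both tissues and 4.23% and 4.18% of pairs reached 1.5. The members are not alike to this background, since Nfkbid and Rel lay under 10% in spleen, as did Nfkbid, Rel, Relb and Nfkb2 in intestine, where odds ratios are noisier. Most pairs at 1.5 or more held such a gene. Those without were Nfkbia with Nfkbiz (1.69) in intestine, and in spleen Nfkbiz with Relb (1.57), Nfkbiz with Nfkb2 (1.61) and Relb with Nfkb2. Relb and Nfkb2, the genes of the RelB and p100 partners, reached 1.5 in both tissues, with an odds ratio of 2.10 in spleen and 2.87 in intestine. Nfkb2 was found in 17.7% of splenic cells with Relb (12.6 to 23.7) and 9.35% of those without (7.79 to 11.1), and in 19.6% (12.4 to 28.6) and 7.93% (6.36 to 9.73) of intestinal ones.

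Nfkbia and Rel were the other pair at 1.5 or more in both tissues, at 2.34 and 1.94. Rel was found in 10.1% of splenic cells with Nfkbia (8.17 to 12.3) and 4.50% without (2.94 to 6.58), and in 11.4% and 6.13% of intestinal cells. Nfkbid and Rel reached 2.46 in spleen, on 14 cells with both, and 1.37 in intestine. Tnfaip3 showed least of this in spleen, with odds ratios of 0.84 to 1.08. In intestine they ran from 0.91 with Nfkb2 to 1.43 with Relb, and the pair of Nfkbid and Nfkbiz was lower, at 0.84. The odds ratio of Tnfaip3 with Nfkbiz was 0.88 in spleen and 1.04 in intestine, although both genes were higher in the same tissue and state. With Nfkbia it was 0.996 and 1.29. Cells with a UMI of Nfkbia, Nfkbiz and Tnfaip3 at once made up 0.556% of splenic cells (0.240 to 1.09) and 15.1% of intestinal cells (13.1 to 17.3), where independent detection would give 0.633% and 12.9%. At least 4 members were found in 4.59% of splenic (3.57 to 5.80) and 14.97% of intestinal cells (13.0 to 17.2), where it would give 2.83% and 11.7%.

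**Figure D5:**
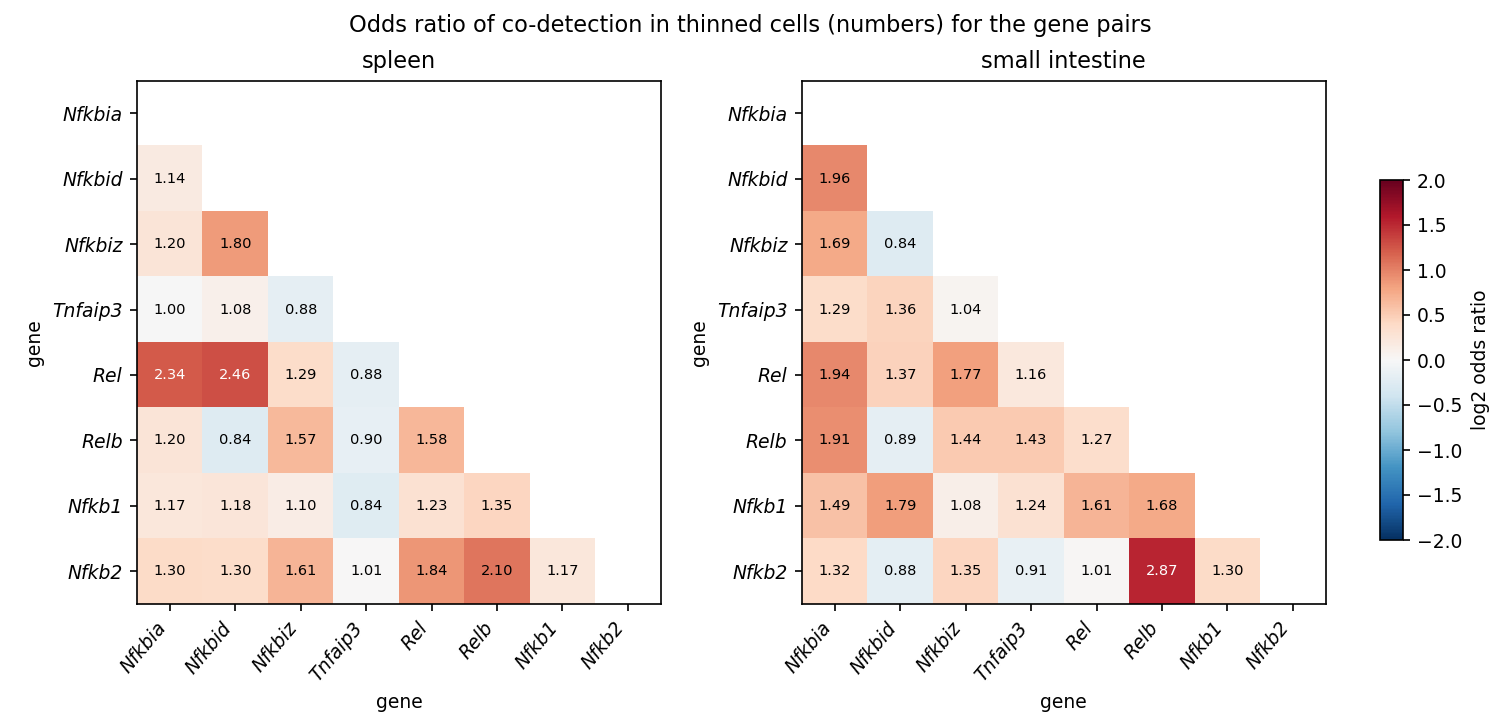
Odds ratios of co-detection (printed numbers, colour on a log2 scale) for the pairs of the 8 genes (both axes) in 1438 splenic and 1149 intestinal cells thinned to 2094 UMIs. Relb with Nfkb2 and Nfkbia with Rel are the pairs at 1.5 or more in both tissues, and the pairs with Tnfaip3 lie between 0.84 and 1.43.

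The genes whose counts were most like those of each member over thinned cells, by Pearson's r averaged over the tissues, were weakly related to it. Nfkbia was nearest to Junb (r = 0.15 over 1438 splenic and 0.32 over 1149 intestinal cells), Pim1 (0.12 and 0.32) and Gadd45b (0.09 and 0.29). Nfkbiz was nearest to Junb, Pim1 and Nfkbia, with mean r of 0.12, 0.11 and 0.10. Tnfaip3 was nearest to Btg1, Ubb and Junb, at 0.14, 0.11 and 0.10, and Nfkb2 to Tnfrsf4, the OX40 receptor, at 0.13, then Nfkbib and Srgn, at 0.11 each. For Nfkbid (Maf, Furin and Il10), Rel (Nfkbia, Bcl2a1b and Map2k3), Relb (Srgn, Hif1a and Mif4gd) and Nfkb1 (Hif1a, Batf and Btg1) mean r was at most 0.10. Cells share library and depth, and correlations of this size in sparse counts are no finding.

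Other genes of the pathway did not follow the feedback genes as a group. Of 26 further pathway genes, 4 were at least 1.5-fold higher in spleen and 6 at least 1.5-fold lower, with a median log2 ratio of -0.05 against 0.02 for all genes. Over all genes 24.2% were higher and 21.4% lower by that fold, the background for each list in this comparison. Birc2, which encodes the ubiquitin ligase cIAP1, was at 37.0 and 115 CPM in spleen and intestine (-1.64), and Traf1, an adaptor of TNF-family receptors, at 165 and 320 CPM (-0.96). Tnip3, an A20-binding inhibitor, was the reverse, at 320 and 104 CPM (1.62), as was Prkcq, the kinase that links the T cell receptor to NF-kB, at 192 and 71.1 CPM (1.43). Of 13 genes known as NF-kB targets in T cells 12 had enough UMIs, 5 being higher in spleen and 3 lower (median -0.11). Il2ra (2.72), Irf4 (1.99) and Ltb (1.61) were higher in spleen and Tnf lower (-2.01). Of 8 early T cell receptor response genes with enough UMIs 2 were higher and 6 lower in spleen (median -1.21), with Nr4a2 at -3.39, Cd69 at -1.71, Nr4a1 at -1.33 and Myc at 2.11. Of 13 measured digestion genes 2 were higher and 7 lower in spleen (median -0.64), with Fosb at -3.40, Dusp1 at -2.16, Fos at -2.13 and Jun at -1.45.

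In the Foxp3 comparison of splenic cells 1 pathway gene was higher and 3 lower by the fold (median -0.07), among them Rela, the p65 subunit, at 36.6 CPM with and 56.4 CPM without a Foxp3 UMI (-0.62). Over all genes 6.35% were higher and 7.4% lower by the fold, with a median of 0.04. Of the target genes 3 were higher and 1 lower of 12 (median 0.36): Tnfrsf9 (1.30), Il2ra (1.28) and Tnfrsf1b (0.96) were higher and Ier3 (-1.35) lower. The 3 higher ones are also receptors that regulatory T cells carry. Of the receptor response genes 0 were higher and 3 lower of 8 (median -0.21), and of the digestion genes 0 and 3 of 13 (median -0.21).

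Between Ccl5-high and Ccl5-low splenic cells 1 pathway gene was higher and 1 lower of 26 (median 0.05). Over all genes 7.98% were higher and 10.3% lower (median -0.03). The higher pathway gene was Traf6, at 0.64 (-0.14 to 1.36), an interval that includes 0. Of the targets 1 was higher and 2 lower of 12 (median 0.19), of the receptor response genes 1 and 2 of 8 (median -0.29), with Nr4a2 at 1.88, and of the digestion genes 3 and 0 of 13 (median 0.21). In intestine 5 pathway genes were higher in Ccl5-high cells and 2 lower of 26 (median -0.05). Over all genes 12.9% were higher and 18.7% lower (median -0.14). Tnip3 was at 112 and 24.8 CPM (2.17, 1.32 to 3.19), Traf1 at 337 and 142 CPM (1.25, 0.88 to 1.64), Rela at 46.9 and 22.5 CPM (1.06, 0.15 to 2.14) and Tnip2 at 12.2 and 27.0 CPM (-1.15, -2.06 to -0.11). The targets gave 2 higher and 3 lower of 12 (median -0.08), the receptor response genes 2 and 0 of 7 (median 0.24), with Nr4a2 at 3.14, and the digestion genes 0 and 1 of 13 (median -0.28), with Jun at -1.29.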

How the data were processed

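The authors trimmed reads with Trimmomatic, aligned them to mm10 with the standard Cell Ranger pipeline and deposited UMI counts per gene and barcode for each tissue, 1 library each; versions are not given in the sources used here. The deposited counts were filtered following the study's methods: barcodes 3 median absolute deviations low in UMIs or genes, or high in mitochondrial share, were left out (90 splenic and 135 intestinal), as were cells placed in G2/M by cyclone (180 and 62; scran 1.30.0, scuttle 1.12.0, R 4.3.3). UMIs were summed per group of cells and scaled to CPM in Python 3.11.15 with scipy 1.17.1. Because 1 library per tissue has no replicate, no test was run: CPM carry exact Poisson intervals, shares Clopper-Pearson intervals and ratios exact conditional binomial intervals, all at 95% and for counting error only. A count of 0 allows up to 3 UMIs, or 0.328 CPM in spleen and 0.596 CPM in intestine. Genes with at least 50 UMIs in a comparison gave the background, and a ratio of 1.5 was the fold. Shares and co-detection used cells thinned to 2094 UMIs, the 10th percentile of the intestinal cells (30 splenic and 128 intestinal cells were shallower), with 0.5 added to each cell of an odds ratio's table. Scrublet called 3 splenic and 12 intestinal doublets, and these were left out as an alternative. Graph clusters (scanpy 1.11.5, 1000 variable genes without the 8 members) were named by leading genes only. Of the T cell markers 4 of 5 were listed under a unique symbol. The interval and thinning code was tested on simulated data. The text names all 8 members and, from each other list, the genes with the 4 largest ratios in either direction among those with 50 UMIs. The members and lists were chosen with earlier results of these data known. The alternatives changed the filter on cells, the weight of cells, the scaling, doublets, other cell types, the digestion list, depth, the filter on low values, the Ccl5 cut and the Foxp3 call.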

Additional observations from a re-analysis of the deposited data

Results flagged for a closer look

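Barcodes that the filters left out also held UMIs of the 8 genes, and these data were used in no comparison above. The summed level of the members was 905 CPM in the 90 splenic barcodes left out for quality and 1030 CPM in the 180 splenic G2/M cells, against 1016 CPM in the kept splenic cells. In intestine it was 1778 CPM in the 135 barcodes left out for quality and 1590 CPM in the 62 G2/M cells, against 1999 CPM in the kept cells. Tnfaip3 kept the order of the tissues in both, at 39.2 and 399 CPM in barcodes left out for quality and 35.2 and 301 CPM in G2/M cells of spleen and intestine. Nfkbid was at 80.4 CPM (55.0 to 113) in the intestinal G2/M cells and 39.7 CPM (34.4 to 45.7) in the kept ones, the widest relative gap among the members there.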

How the results depend on the processing

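The log2 ratios of Tnfaip3 and Nfkbiz between tissues ranged from -3.37 to -2.36 and from -2.38 to -1.40 over 13 alternatives, always past the fold. That of Nfkbia ranged from -1.43 to 0.25, the latter being the reversal seen when splenic cells high in the digestion list were set against intestinal cells low in it, a setting chosen after seeing the data, as were the Ccl5 cut of 40 and the tissue ratios within 1 Ccl5 state. The 1 member higher in spleen became 0 with abundant genes out of the totals, without the 5% of cells with the most UMIs or in Ccl5-low cells, and 4 in the digestion setting. No share of all genes past the fold is given for the digestion setting. The 2 members lower with Foxp3 became 0 with each cell weighted the same, without the 5% of cells with the most UMIs, after thinning and in Ccl5-low cells. The 2 higher in splenic Ccl5-high cells, Tnfaip3 and Nfkbiz, were both inside the fold with graph clusters, where 1 other member, Nfkbid, was past it, and after thinning 1 was lower in place of 0. In intestine the 2 lower members became 4 with all barcodes, with G2/M cells kept, without the 5% of cells with the most UMIs, after thinning, with a cut of 20, with graph clusters and without Foxp3 cells, and the 1 higher became 0 with graph clusters. The members called lower there were each inside the fold in 1 alternative, Nfkb1 at -0.29 with a cut of 5 and Nfkbid at -0.56 without the 25% of cells highest in the digestion list. The share of intestinal cells with Nfkbid fell from 9.05% to as low as 6.88% in other thinnings. Beyond what each setting changes by construction, the cause was not tested. Of 440 member ratios under alternatives 398 stayed close to the value above, 41 moved and 1 reversed. In the comparison of tissues 78 of 104 stayed close, 25 moved and 1 reversed. A change of sign was not always counted as reversed. Nfkb1 went from 0.28 (0.16 to 0.41) over all cells to -0.48 (-0.77 to -0.19) in Ccl5-low cells. The tissue ratios of Nfkbid (-0.99 to 0.88), Rel (-0.46 to 0.46) and Nfkb2 (-0.14 to 0.69) also took both signs over the alternatives. All 96 of the Foxp3 comparison counted as close, although its 2 calls were lost in the settings named above. A ratio counted as close can therefore still cross the fold. No paired analysis was possible because each tissue had 1 library. Depth limits most the 28 intestinal Foxp3 and 100 intestinal Ccl5-low cells, where a member can rest on 2 to 30 UMIs.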

Other observations

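The cells were sorted for an IL-10 reporter, and an Il10 UMI was left in 44.9% of splenic and 60.7% of intestinal cells after thinning. In intestine Nfkbia was found in 76.2% of cells with an Il10 UMI (72.8 to 79.3) and 64.6% of cells without (60.0 to 69.0), and Nfkbiz in 36.9% (33.3 to 40.6) and 28.3% (24.2 to 32.7). In spleen both were nearly level, Nfkbia at 62.4% and 60.6% and Nfkbiz at 10.7% and 9.85%. Nfkbid was the splenic member with the widest relative gap, at 8.05% with Il10 (6.07 to 10.4) and 4.42% without (3.10 to 6.09). Tnfaip3 was at 54.4% and 52.7% in intestine and 11.5% and 8.96% in spleen, with overlapping intervals. Whether these gaps differ between tissues was not tested.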
